A study of Saccharomyces cerevisiae with 22 samples.

Results

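Yeast cells that had been at 37 °C for 60 min were compared with cells of the same strain that had been growing at 37 °C, to see which transcripts still set shifted cells apart from cells already accustomed to the higher temperature. The comparison uses 4 of the 22 arrays of the series, 2 from each group, and covers all 5315 named genes of the arrays. BY4742 is a haploid laboratory strain of mating type alpha that lacks working HIS3, LEU2, LYS2 and URA3 genes. For the heat samples it was grown in synthetic complete medium with 2% glucose at 30 °C for 2 cell doublings, pelleted, re-suspended in medium at 37 °C and harvested 60 min later. The 37 °C culture was grown in the same medium at 37 °C for 2 doublings and harvested at 0 min of a cooling course to 30 °C, and its treatment label therefore reads cold shock. Both groups are wild type and carry no further treatment.

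RNA of each sample was hybridised in 2 colours to spotted oligonucleotide arrays together with a common reference, RNA of untreated BY4742. Array a of a pair carries the sample in Cy3 and array b carries it in Cy5. Values are log2 ratios of sample over reference, and the difference reported for a gene is its mean at 60 min of heat minus its mean in the 37 °C culture, so that the reference itself drops out. A positive difference means more transcript at 60 min. The study's descriptions disagree on whether the arrays of a pair come from separate cultures or are a dye swap, and p-values thus measure the spread between arrays, which may be technical. The shifted cells were pelleted and given new medium and the groups belong to separate time courses, so that time at 37 °C, handling and culture cannot be told apart. The 37 °C culture itself had only 2 doublings at that temperature.

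When yeast is moved from 30 to 37 °C, the transcription factor Hsf1 activates chaperone genes, whose products refold or disentangle damaged proteins. Msn2 and Msn4 enter the nucleus and switch on a large set of general stress genes for antioxidant enzymes, trehalose synthesis and reserve carbohydrate. Genes for ribosome production fall at the same time. Much of this response is transient, since cells adapt and resume growth at the new temperature.

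The median intensity of the gene spots in the sample channel was 283 and 397 on the arrays of 60 min of heat and 347 and 354 on those of the 37 °C culture. In the reference channel it lay between 196 and 382. Between 92.4% and 97.2% of the gene spots on these arrays were well above background. Arrays of a pair correlated across genes at 0.962 for 60 min of heat and at 0.956 for the 37 °C culture, and the differences from the a arrays and from the b arrays correlated at 0.872. Genes are not independent replicates in these correlations. The lowest correlation between any arrays of the same dye orientation in the series was -0.41, and the dyes of all arrays are stated in the labels. The small number of arrays limits the precision.

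Most transcripts stood close together in the shifted cells and the 37 °C culture. Among the exceptions, general stress genes and chaperones that were higher at 60 min made up the largest listed groups. By limma, 73 genes were higher and 18 lower at 60 min at a Benjamini-Hochberg adjusted p below 0.05 and more than 1.7-fold difference, 1.37% and 0.339% of the 5315 genes (1.71% in either direction). The median difference of the higher genes was 1.00 on the log2 scale, with a range from 0.77 to 2.28, and that of the lower genes was -0.91, with a range from -1.72 to -0.78. Standard errors of the called genes ran from 0.0435 to 0.287. In each of the 91 called genes the values at 60 min did not overlap those of the 37 °C culture, as was the case in 3504 of all 5315 genes. The adjusted p alone was passed by 2375 genes (44.7%), and all 91 genes beyond 1.7-fold passed it, and the counts were thus fixed by the fold threshold.

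**Figure D1:**
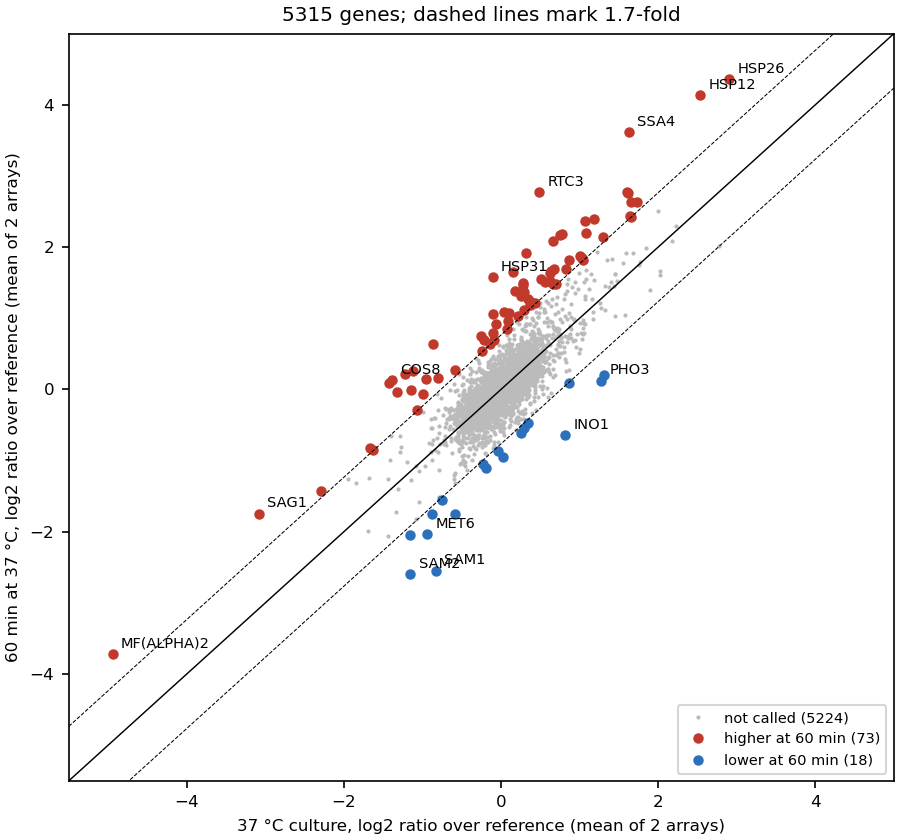
Each point is a gene, with its log2 ratio over the reference in the 37 °C culture on the horizontal axis and at 60 min of heat on the vertical axis, both means of 2 arrays. The 73 higher genes (red) lie above the upper dashed line of 1.7-fold difference and reach from MF(ALPHA)2 at the lower left to HSP26 at the upper right, and the 18 lower genes (blue) lie under the lower dashed line.

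Calls were mostly upward, in 80.2% of cases. This split was 55.1% with no within-array curve (54 higher and 44 lower) and 95.4% with a curve through external control spots (146 higher and 7 lower). With that curve 11 of the 18 lower genes were no longer called. The setting moved the median of all genes by 0.22, and differences are reported relative to the median of all genes unless the setting is named. Without array a of 60 min of heat 21 of the 91 calls were lost and without array a of the 37 °C culture 18. These were 27 genes in all, whereas leaving out either array b lost none. Some differences varied in size with the array letter, and so with the dye. GPG1 differed by 1.18 on the a arrays and 0.51 on the b arrays, and YDR222W by 1.44 and 1.57.

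The largest difference belonged to RTC3, a small stress-induced protein of the cytosol. Its log2 ratios were 3.00 and 2.54 at 60 min and 0.37 and 0.60 in the 37 °C culture, a difference of 2.28 (SE 0.120, adjusted p = 3.4e-09 in limma's test), or 4.87-fold. SSA4, the heat-inducible Hsp70 chaperone, stood at 3.67 and 3.57 against 1.52 and 1.73 (difference 1.99, SE 0.131). In both genes the 37 °C culture was already above the reference, only marginally in RTC3 and clearly in SSA4, and the shifted cells were far above it.

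Chaperones formed a large group among the higher genes. Among the 29 chaperone genes under Hsf1 that were measured, 11 were higher and none was lower, beside 1.37% and 0.339% of all genes. A positive difference was found in 26, against 2658 of all 5315 genes, and the median difference was 0.59 against 0.00 over all genes. The same shares over all genes apply to the list counts that follow. The median level of the list was 1.27 over the reference at 60 min and 0.63 in the 37 °C culture, so that the 37 °C culture itself kept raised chaperone transcripts. It had 12 of the 29 genes more than 1.7-fold above the reference, and the shifted cells 19.

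HSP26 and HSP42 encode the small heat shock proteins that hold unfolded proteins in a soluble or sorted state. HSP26 gave 4.43 and 4.30 at 60 min and 2.77 and 3.05 in the 37 °C culture, a difference of 1.45 (SE 0.0852), and HSP42 differed by 1.18. The disaggregase HSP104, which pulls proteins out of aggregates, was at 2.92 and 2.59 against 1.60 and 1.62. Its mitochondrial relative HSP78 differed by 0.91. All 4 stayed well above the reference in the 37 °C culture, with means of 1.60 or more.

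The partners of Hsp70 behaved differently in their level at 37 °C. SSE2, the stress-inducible Hsp110 that exchanges nucleotide on Hsp70, was at 2.24 and 2.13 against 0.73 and 0.82 (difference 1.41, SE 0.0619). SIS1, an essential J-domain protein that delivers substrates to Hsp70, was at 1.27 and 1.50 against 0.10 and 0.25 (difference 1.21, SE 0.106). BTN2, a sorting factor for aggregated proteins, was at 0.999 and 1.13 against -0.18 and -0.011. The SIS1 and BTN2 values of the 37 °C culture were thus close to the untreated reference, whereas those at 60 min were above it.

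SSA1, a constitutive and heat-inducible Hsp70, and STI1, which links Hsp70 to Hsp90, differed by 0.90 and 0.81. The SSA1 probe reached signals above 32768, beyond which spots were kept out of the normalisation curve, and SSA1 was not called with a curve through external control spots or without the curve. The Hsp90 genes themselves were not called. HSC82, the constitutive Hsp90, differed by 0.73 with 1.23 and 1.21 against 0.53 and 0.44. The values of inducible HSP82 were uneven between the arrays at 60 min, 0.58 and 1.35, against 0.61 and 0.65 in the 37 °C culture.

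The activator genes themselves showed no called difference. HSF1 differed by -0.10 (SE 0.062), MSN2 by -0.021 and MSN4 by 0.020. The sign of each of these 3 turned under other processing. RPN4, activator of the proteasome genes, was at 0.19, and GCN4, activator of amino acid synthesis, at -0.23.

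General stress genes, the class that Msn2 and Msn4 activate, held the most calls of any list. Of 36 measured 18 were higher and none lower, and 34 had a positive difference. The median was 0.74, with 0.91 on the a arrays and 0.63 on the b arrays. The list stood at a median of 1.69 over the reference at 60 min and 0.84 in the 37 °C culture. RTC3 above is a member.

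HSP31, a chaperone and methylglyoxalase of the DJ-1 family, was at 1.73 and 1.42 at 60 min and -0.089 and -0.12 in the 37 °C culture (difference 1.68, SE 0.0946). CTT1, the cytosolic catalase, was at 2.17 and 1.67 against 0.21 and 0.42 (difference 1.61, SE 0.124). ALD3, an aldehyde dehydrogenase, was at 1.95 and 1.34 against 0.13 and 0.17 (difference 1.50). These 3 genes were near the reference in the 37 °C culture, less than 1.7-fold from it, and well above it after 60 min.

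HSP12, a small membrane-stabilising protein, showed another pattern. It was at 4.24 and 4.05 at 60 min and already at 2.44 and 2.63 in the 37 °C culture, a difference of 1.61 (SE 0.134). DDR2 and DDR48, named for their induction by DNA damage and raised by many stresses, differed by 1.41 and 1.43. DDR2 was at 2.26 and 2.08 against 0.53 and 0.99.

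Among the other called stress genes were MSC1 (1.30), SOL4, a protein related to phosphogluconolactonases (1.12), GND2, the minor phosphogluconate dehydrogenase (1.03), GRE3, an aldose reductase (1.02), the ATPase-stabilising factor STF2 (0.88) and the mitochondrial outer membrane protein OM45 (0.86). The smallest called differences were those of TSL1 (0.80) and TFS1, an inhibitor of carboxypeptidase Y (0.78), and both were lost under some other processing. Members with no call included HXK1, hexokinase 1, at 0.71 and the nicotinamidase PNC1 at 0.71. YGP1, a cell wall glycoprotein gene, had the lowest value of the list, -0.21.

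Trehalose protects proteins during heat, and the genes around it showed smaller differences. Of 22 genes of trehalose and glycogen metabolism 3 were higher and none lower, with a median of 0.28. The 3 are general stress genes as well. They were PGM2, the major phosphoglucomutase (2.47 and 2.32 against 1.08 and 1.30), UGP1, which makes UDP-glucose (1.24 and 1.22 against 0.32 and 0.45), and TSL1, a subunit of the trehalose synthase complex (2.47 and 2.42 against 1.57 and 1.72). The 2 catalytic subunits, TPS1 and TPS2, differed by 0.62 and 0.65 and were not called. GPH1, glycogen phosphorylase, was nearly equal in the groups (0.15) although far above the reference in both, at 1.99 and 1.84.

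**Figure D2:**
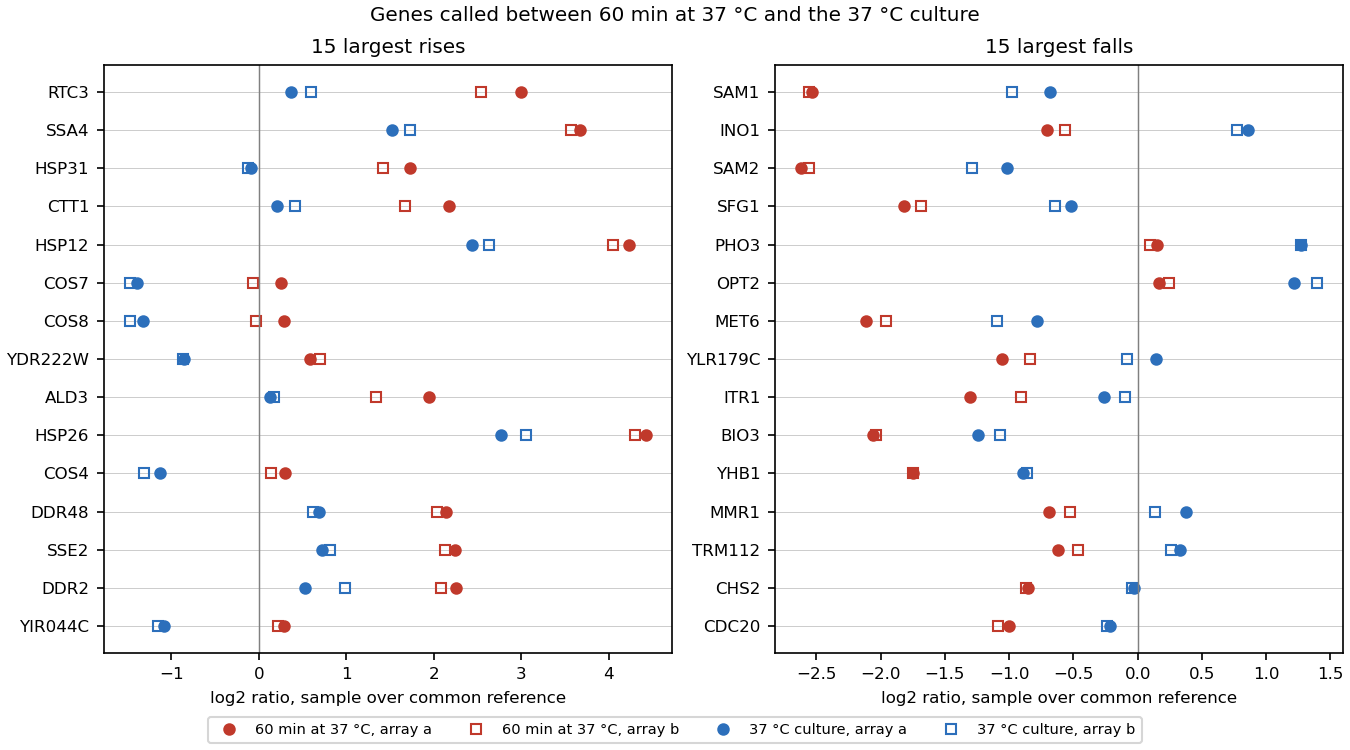
The horizontal axis is the log2 ratio of sample over common reference for the 15 called genes with the largest rise (left) and the 15 with the largest fall (right); filled circles are a arrays, open squares b arrays, red is 60 min at 37 °C and blue the 37 °C culture. In each of the genes shown the red and blue marks do not overlap, and stress genes such as HSP12 and HSP26 lie right of 0 in both groups whereas the COS genes lie near 0 at 60 min and well left of it in the 37 °C culture.

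Genes for protein folding in the endoplasmic reticulum gave a mixed picture. Of 19 measured 2 were higher and 1 lower, with a median of 0.23. KAR2, the Hsp70 of the endoplasmic reticulum, which is also in the chaperone list, was at 1.74 and 1.52 against 0.66 and 0.59 (difference 1.01, SE 0.0801). ERO1, the oxidase for disulfide formation, was at 1.52 and 1.43 against 0.61 and 0.72 (difference 0.81). PDI1, the main disulfide isomerase, was at 0.23 and HAC1, the activator of the unfolded protein response, at -0.15, neither called. The lower gene, INO1, encodes inositol-3-phosphate synthase, the first enzyme of inositol synthesis, and is no folding enzyme.

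Of 30 oxidative stress genes 1 was higher and 1 lower, beside 1.37% and 0.339% of all genes, with a median of 0.031. TSA2, a stress-inducible thioredoxin peroxidase, was at 1.68 and 1.43 against 0.42 and 0.60 (difference 1.05, SE 0.0734). YHB1, the flavohemoglobin that removes nitric oxide, was at -1.75 on both arrays of 60 min and at -0.89 and -0.86 in the 37 °C culture (difference -0.87). It was below the reference in both groups, and lower in the shifted cells.

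Of 23 glucose-repressed genes 2 were higher, the moderate-affinity hexose transporter HXT5, which is known to be expressed in slow growth (1.66 and 1.32 against 0.22 and 0.34, difference 1.21), and CYB2, cytochrome b2 (difference 0.97). HXT5 was also the only call among 16 genes for hexose transporters and their regulators. The median of these 16 was -0.14 (0.10 with a curve through external control spots, where the median of all genes was 0.22). Of 19 genes of the tricarboxylic acid cycle and related enzymes 1 was higher, MDH2, the cytosolic malate dehydrogenase (-0.86 and -0.85 against -1.64 and -1.61), with a list median of 0.25. Of 38 respiratory chain and ATP synthase genes none was called (median 0.19), and 32 of them had a positive difference, the largest being SDH2 at 0.44.

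The largest fall of all genes was in the methionine cycle, which turns homocysteine into methionine and then into S-adenosylmethionine, the methyl donor of the cell. SAM1 and SAM2 encode the S-adenosylmethionine synthetases. SAM1 was at -2.54 and -2.56 at 60 min and -0.68 and -0.98 in the 37 °C culture, a difference of -1.72 (SE 0.075, adjusted p = 6.0e-10 in limma's test). SAM2 was at -2.62 and -2.56 against -1.02 and -1.29, a difference of -1.44 (SE 0.081). The probes of this closely related pair may share signal.

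MET6, the methionine synthase, was at -2.11 and -1.96 at 60 min and -0.78 and -1.09 in the 37 °C culture (difference -1.09, SE 0.0852). SAM1, SAM2 and MET6 were the only calls among the 36 genes of methionine and sulfate metabolism, 0 higher and 3 lower. Each was below the reference in the 37 °C culture, by more than 1.7-fold, and lower again in the shifted cells. ADO1, the adenosine kinase that clears a by-product of methylation, differed by -0.71 and SAH1, which splits S-adenosylhomocysteine, by -0.30, neither called. The genes of sulfate uptake and reduction had no call, with SUL1 at 0.041, MET3 at -0.16, MET16 at 0.15 and MET10 at -0.36. The list median was -0.18, and 0.019 with a curve through external control spots, where the median of all genes was 0.22.

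Biotin genes were low as a group. Of 6 measured 2 were lower and none higher, all 6 had a negative difference, and the median was -0.70. BIO3, an aminotransferase of biotin synthesis, was at -2.06 and -2.04 against -1.24 and -1.07 (difference -0.89, SE 0.058). BIO2, biotin synthase, was at -1.58 and -1.54 against -0.78 and -0.72 (difference -0.81, SE 0.0502). VHT1, the plasma membrane biotin importer, at -0.74 and BIO4 at -0.66 were not called, and BPL1, the ligase that attaches biotin to enzymes, was at -0.012. With a curve through external control spots BIO2 and BIO3 were no longer called.

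Genes of inositol and phosphate metabolism were also among those that were lower. INO1 was at 0.86 and 0.78 in the 37 °C culture and at -0.71 and -0.57 after 60 min, a difference of -1.45 (SE 0.0703). ITR1, the main inositol transporter, was at -1.31 and -0.90 against -0.27 and -0.10 (difference -0.92, SE 0.0775). The groups lie on opposite sides of the reference for INO1, whereas the ITR1 values are below it in both.

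PHO3, a constitutive acid phosphatase, was at 0.15 and 0.097 at 60 min and 1.27 on both arrays of the 37 °C culture (difference -1.15, SE 0.0626). The repressible phosphatase gene PHO12 differed by -0.73 and was not called; such acid phosphatase genes are close copies whose probes may share signal. PHO84, the high-affinity phosphate transporter, was higher at 60 min and below the reference in both groups, at -0.85 and -0.78 against -1.79 and -1.55 (difference 0.85). GPP2, a glycerol phosphatase (0.93), and PHM8, a nucleotide phosphatase (0.78), were also higher. In all, 3 of 18 genes of the phosphate list were higher and 1 lower, with a median of 0.087, and the directions were mixed.

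OPT2, a transporter of the oligopeptide family, was at 0.16 and 0.25 against 1.21 and 1.40 (difference -1.10, SE 0.0435). RNR4, a small subunit of ribonucleotide reductase, was at 0.020 and 0.17 against 0.995 and 0.75. As with INO1 and PHO3, only the 37 °C culture was more than 1.7-fold from the reference. SFG1, a regulator of growth form, was at -1.82 and -1.69 against -0.52 and -0.64 (difference -1.17). Here only the shifted cells were more than 1.7-fold from the reference. YLR179C, a gene without a settled function, differed by -0.975.

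Mitotic genes of the CLB2 cluster shared small negative differences. Of 23 measured 2 were lower and none higher, beside 0.339% and 1.37% of all genes. On both the a and the b arrays 22 had a negative difference, against 2107 of all 5315 genes. The median was -0.39 (-0.10 with a curve through external control spots, where the median of all genes was 0.22). CDC20, the activator of the anaphase-promoting complex, was at -1.002 and -1.09 against -0.21 and -0.24 (difference -0.82, SE 0.0556). CHS2, the chitin synthase that builds the septum, was at -0.85 and -0.87 against -0.028 and -0.044 (difference -0.83, SE 0.0687). CLB2 itself, the major mitotic cyclin, was at -0.68 and HOF1, which acts at the bud neck, at -0.69, neither called. Neither CDC20 nor CHS2 was called with the control-spot curve.

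Late G1 genes, by contrast, gave no call among 44, with a median of 0.14 and a positive difference in 32. PCL1, a G1 cyclin, had the largest value, 0.65. The 10 histone genes had no call either and a median of 0.16, which was -0.081 with no within-array curve. Of 24 M/G1 genes 1 was called, STE3, which is also an alpha-specific gene. The list median was -0.16 (0.088 with a curve through external control spots, where the median of all genes was 0.22). MMR1, whose protein carries mitochondria into the bud, lies outside these lists and was lower, at -0.69 and -0.53 against 0.38 and 0.13.

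Genes of ribosome production had small negative differences in nearly all members. Of 107 ribosome biogenesis genes 1 was lower and none higher, beside 0.339% lower among all genes, while 103 had a negative difference and 99 were lower on both the a and the b arrays, against 2107 of all 5315 genes. The median was -0.30. With a curve through external control spots it was -0.026, where the median of all genes was 0.22.

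The called member was UTP10, a subunit of the complex that processes the small-subunit ribosomal RNA, at -0.41 and -0.52 against 0.37 and 0.32 (difference -0.81, SE 0.0573). TRM112, an activator of methyltransferases for tRNA, ribosomal RNA and release factor, is in no list and was lower too (-0.84). None of the 18 measured RNA polymerase I and III subunits was called, 17 had a negative difference, and the median was -0.20, with RPA190, the largest subunit of polymerase I, at -0.54. With a curve through external control spots that median was 0.036, where the median of all genes was 0.22.

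Of 126 genes of cytosolic ribosomal proteins 1 was called, RPS4B, beside 1.71% of all genes in either direction. A negative difference was found in 80, and the median was -0.085. With no within-array curve this median was -0.47, where that of all genes was -0.053. RPS4B, at 0.92 and 0.47 against -0.35 and -0.088, had the largest standard error of all called genes, 0.287 (adjusted p = 0.0174 in limma's test). Its signals exceeded 32768, and its difference was -0.15 with no within-array curve. Of 33 proteasome subunits none was called, with a positive difference in 30 and a median of 0.15, which was -0.037 with no within-array curve.

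**Figure D3:**
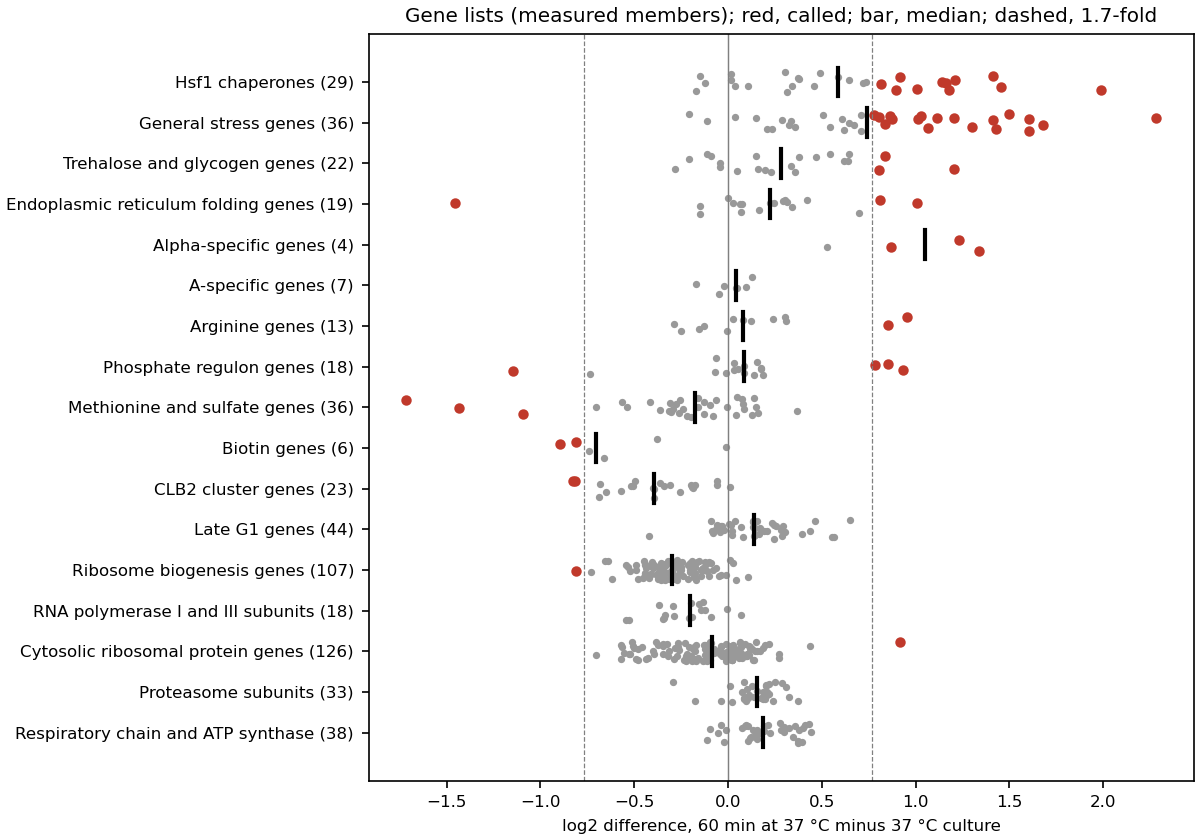
Each point is a measured list member, with the log2 difference of 60 min of heat minus the 37 °C culture on the horizontal axis; red points are called, bars are list medians and dashed lines mark 1.7-fold. Chaperones and general stress genes reach furthest to the right and methionine genes furthest to the left, all 6 biotin genes lie left of 0, and the 107 ribosome biogenesis genes lie slightly left of 0 with 1 call.

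Among the lists of mating genes, calls were confined to 3 alpha-specific genes and AGA1. Alpha-specific genes are expressed in cells of mating type alpha alone and encode the alpha-factor pheromone, the receptor for a-factor and the agglutinin that binds a cells. Of 4 measured 3 were higher at 60 min and none lower, with a median of 1.05. All 4 lay more than 1.7-fold below the reference in both groups, with a median level of -1.58 at 60 min and -2.69 in the 37 °C culture.

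SAG1, the alpha-agglutinin, was at -1.88 and -1.61 at 60 min and -3.12 and -3.05 in the 37 °C culture (difference 1.34, SE 0.0698). MF(ALPHA)2, the minor alpha-factor gene, was at -3.82 and -3.60 against -5.15 and -4.74 (difference 1.23, SE 0.121). STE3, the receptor for a-factor, was at -1.36 and -1.49 against -2.32 and -2.26 (difference 0.87). MF(ALPHA)1, the major alpha-factor gene, was at -1.30 and -1.33 against -1.84 and -1.85, a difference of 0.53 that was not called. MF(ALPHA)1 and MF(ALPHA)2 have similar sequences, so that their probes may share signal.

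None of 7 a-specific genes was called. They lay between -0.17 (AGA2) and 0.13 (BAR1) in their difference, with STE2 at 0.096, STE6 at 0.047, ASG7 at 0.042, MFA1 at -0.046 and MFA2 at -0.022. Their levels were near the reference in both groups. Their highest signals were low, from 77.1 (MFA2) to 216.5 (STE2), against channel backgrounds of up to 50. Ratios near 0 from such dim probes say little about expression. Of 14 haploid-specific genes none was called, with FUS3, the mating MAP kinase, highest at 0.31. Of 19 pheromone-response genes 1 was higher, AGA1, the anchor subunit of a-agglutinin (-0.11 and -0.026 against -0.985 and -0.989, difference 0.92). The MF(ALPHA)1 probe reached a signal of 16955 and all alpha-specific genes were well above background on these arrays.

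Of the strain markers, LEU2 and URA3 had highest signals of 62.5 and 59.8, near channel backgrounds of up to 50, and differed by -0.071 and -0.041. MET17, which BY4742 carries, differed by -0.29 and LYS2 by -0.15. HIS3 was at -0.078 and -0.049 against 0.26 and 0.38, a difference of -0.38 (SE 0.048) that was not called. Its values did not overlap between the groups, as was the case in 3504 of all 5315 genes. The reference is of the same strain, and the part of the HIS3 gene that the probe reads is not known here.

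Arginine genes included 2 higher members of 13, with a median of 0.078 (-0.066 with no within-array curve). ARG3, ornithine carbamoyltransferase, was at 1.87 and 1.78 at 60 min and 0.80 and 0.95 in the 37 °C culture (difference 0.95, SE 0.0588). CAR2, the ornithine transaminase of arginine breakdown, was at 0.20 and 0.34 against -0.56 and -0.61 (difference 0.85). Other members, ARG1 and ARG8 among them at 0.30 and 0.31, were not called. Of 52 other amino acid biosynthesis genes none was called, and HIS4 of histidine synthesis had the largest value, 0.69.

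The remaining lists held no called gene. The 33 cell wall integrity genes had a median of 0.0099 (-0.13 with no within-array curve), with GSC2, a glucan synthase subunit, at -0.75 but far above the reference in both groups (2.06 and 1.99 against 2.74 and 2.81). Of 29 sterol genes the regulator ECM22 had the largest difference, -0.73, and of 29 iron genes the enterobactin transporter ENB1, -0.70. The 19 purine genes were led by HPT1, a salvage enzyme, at -0.60. Their median was -0.15, and 0.16 with a curve through external control spots, where the median of all genes was 0.22. The 20 anaerobic and hypoxic genes were led by CYC7, cytochrome c isoform 2, at 0.67, the 14 zinc and copper genes by the zinc transporter ZRT1 at -0.47, and the 17 arrest and growth regulators by the repressor XBP1 at 0.40.

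A set of 36 called genes, 29 higher and 7 lower, belonged to no list. Several have metabolic roles. GCY1 (1.19) and DAK1 (0.82) act in glycerol breakdown, AMS1 is the vacuolar mannosidase (1.04), NQM1 a transaldolase (0.98), GAD1 glutamate decarboxylase (0.79), GTT1 a glutathione transferase (1.00), MCR1 a mitochondrial reductase (0.83) and GCV1 the T subunit of glycine decarboxylase (0.89). TDH3, the main glyceraldehyde-3-phosphate dehydrogenase, had the smallest called rise, 0.77, and its signals exceeded 32768; it was not called under several other settings.

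The COS genes, chosen for description after their values were seen, formed another part of these 36. They are a family of similar genes next to the chromosome ends that encode membrane proteins involved in sorting other membrane proteins to the vacuole. The similarity differs between members, and a probe may read several of them. COS7 was at 0.26 and -0.062 at 60 min and -1.39 and -1.47 in the 37 °C culture (difference 1.53, SE 0.0684). COS8 differed by 1.52, COS4 by 1.44, COS2 by 1.14 and COS5 by 1.10. In all 5 the value at 60 min was near the reference, and it was the 37 °C culture that lay below.

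These 5 called COS genes remained below the reference throughout the cooling course that began from the 37 °C culture. COS7 was at -1.82 after 5 min at 30 °C, at -1.52 after 15 min and at -1.12 after 60 min. In the heat course the same gene was at 0.046 after 5 min, 0.17 after 15 min and 0.098 after 60 min. The means of the 5 genes lay between -1.82 and -0.74 in the cooling course, its 0 min culture included, and between -0.12 and 0.60 in the heat course. Whether the low values go with temperature or with the culture from which the course was taken cannot be told apart. COS6 (0.67), COS10 (0.56) and COS9 (0.46) differed less and were not called, and COS12 was at -0.031. COS10 did not share the pattern, with 0.064 after 5 min of cooling and -0.42 after 15 min of heat.

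YIR044C (1.37), YIR043C (0.77) and YDR541C (0.96) were likewise low in the cooling course. YIR044C was at 0.29 and 0.22 against -1.08 and -1.15, and stayed at -1.50 after 5 min and -0.80 after 60 min of cooling. RefSeq's gene table gives YIR044C as a synonym of YIR043C, so that these probes may read 1 locus, counted here as 2 of the 73 higher genes. YNL134C, a gene of the alcohol dehydrogenase type, was near the reference at 60 min (0.063 and -0.12) and low in the 37 °C culture (-1.36 and -1.27, difference 1.29).

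**Figure D4:**
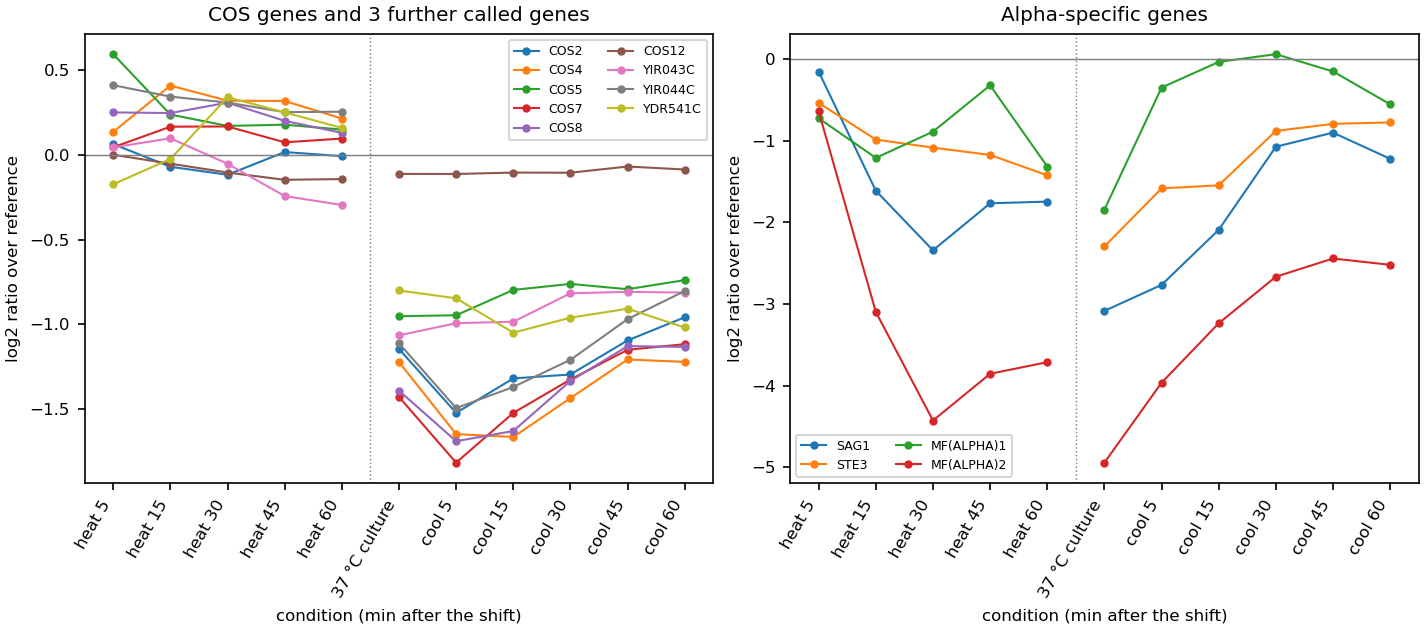
Mean log2 ratio over the reference (vertical axis, 2 arrays each) for COS2, COS4, COS5, COS7, COS8, COS12 and 3 further called genes (left) and for the 4 alpha-specific genes (right) through the heat course at 5 to 60 min and the cooling course from the 37 °C culture. Apart from COS12 the genes on the left lie between -0.29 and 0.60 in the heat course and between -1.82 and -0.74 in the cooling course, whereas the alpha-specific genes are lower at 60 min than at 5 min of heat and higher after 60 min of cooling than at its start.

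Sorting the called genes by the reference shows which group departed from untreated cells, by more than 1.7-fold and with no test. Of the 73 higher genes 32 were above the reference only at 60 min, RTC3, CTT1, HSP31, SIS1 and KAR2 among them, and 19 were above it in both groups, such as SSA4, HSP12, HSP26 and HSP104. Another 11 were near the reference at 60 min and below it in the 37 °C culture, which were the 5 COS genes, YIR043C, YIR044C, YDR541C, YDR222W, YNL134C and AGA1. A further 5 were below the reference in both groups (SAG1, STE3, MF(ALPHA)2, PHO84 and MDH2) and 6 near it in both.

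By the same 1.7-fold rule, 6 of the 18 lower genes were below the reference only at 60 min (BIO2, CDC20, CHS2, ITR1, SFG1 and YLR179C). In the 37 °C culture BIO2 fell just short of the rule, with a mean of -0.75. In both groups 5 were below the reference (BIO3, MET6, SAM1, SAM2 and YHB1). INO1, OPT2, PHO3 and RNR4 were near it at 60 min and above it in the 37 °C culture, and 3 were near it in both.

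In most of the higher genes the excess over the 37 °C culture shrank with time. The median excess of the 73 genes was 1.53 at 5 min of heat, rose to 2.13 by 15 min and 2.01 by 30 min, and then shrank to 1.19 by 45 min and 1.00 by 60 min. From 15 to 60 min the excess narrowed in 64 of 73 genes, and from 45 to 60 min in 58. The median share of the 15 min excess that was left at 60 min was 49.7% over the 70 genes with an excess at 15 min. These genes were selected on the 60 min arrays, and the courses are a description.

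Single genes show how different the approach was. RTC3 was at 4.99 after 15 min, 2.90 after 45 min and 2.77 after 60 min, with 0.49 in the 37 °C culture. HSP12 had its highest value later, 5.18 at 30 min, and was at 4.14 at 60 min. ALD3 went from 5.02 at 15 min to 1.64 at 60 min, most of the way to the 0.15 of the 37 °C culture. The highest value of the heat course was reached in 11 of the higher genes at 5 min, in 38 at 15 min, in 19 at 30 min, in 2 at 45 min and in 3 at 60 min.

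A few higher genes moved the other way. YDR222W, a gene of unknown function, was at -1.41 after 15 min, below the -0.86 of the 37 °C culture, and climbed to 0.64 at 60 min. ARG3 was at -0.39 after 15 min and 1.83 at 60 min, so that it passed the 0.87 of the 37 °C culture. RPS4B, with its uncertain value, was the last of the 3 whose highest value was at 60 min. The excess was also wider at 60 than at 15 min in COS2, YDR541C, AGA1, PHO84, GPG1 and ERO1.

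The lower genes were followed in the same way. Their median distance below the 37 °C culture was 0.25 after 5 min, 1.26 after 15 min and 1.22 after 30 min. It was 1.09 after 45 min and 0.91 after 60 min, with a median of 82.6% of the 15 min distance left. A call required more than 1.7-fold at 60 min, which sets a minimum to this share. That minimum is higher where the 15 min distance is smaller, as in the lower genes (1.26 against 2.13 in the higher). The shares of higher and lower genes can therefore not be compared. The distance narrowed from 15 to 60 min in 12 of 18 genes, such as UTP10, which went from -1.85 to -0.46. SAM1 was at -3.03 after 15 min and -2.55 at 60 min. In INO1, SAM2, ITR1, CDC20, CHS2 and MMR1 the distance was wider at 60 min than at 15 min, and CDC20, CHS2 and MMR1 had their lowest values of the course at 60 min.

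**Figure D5:**
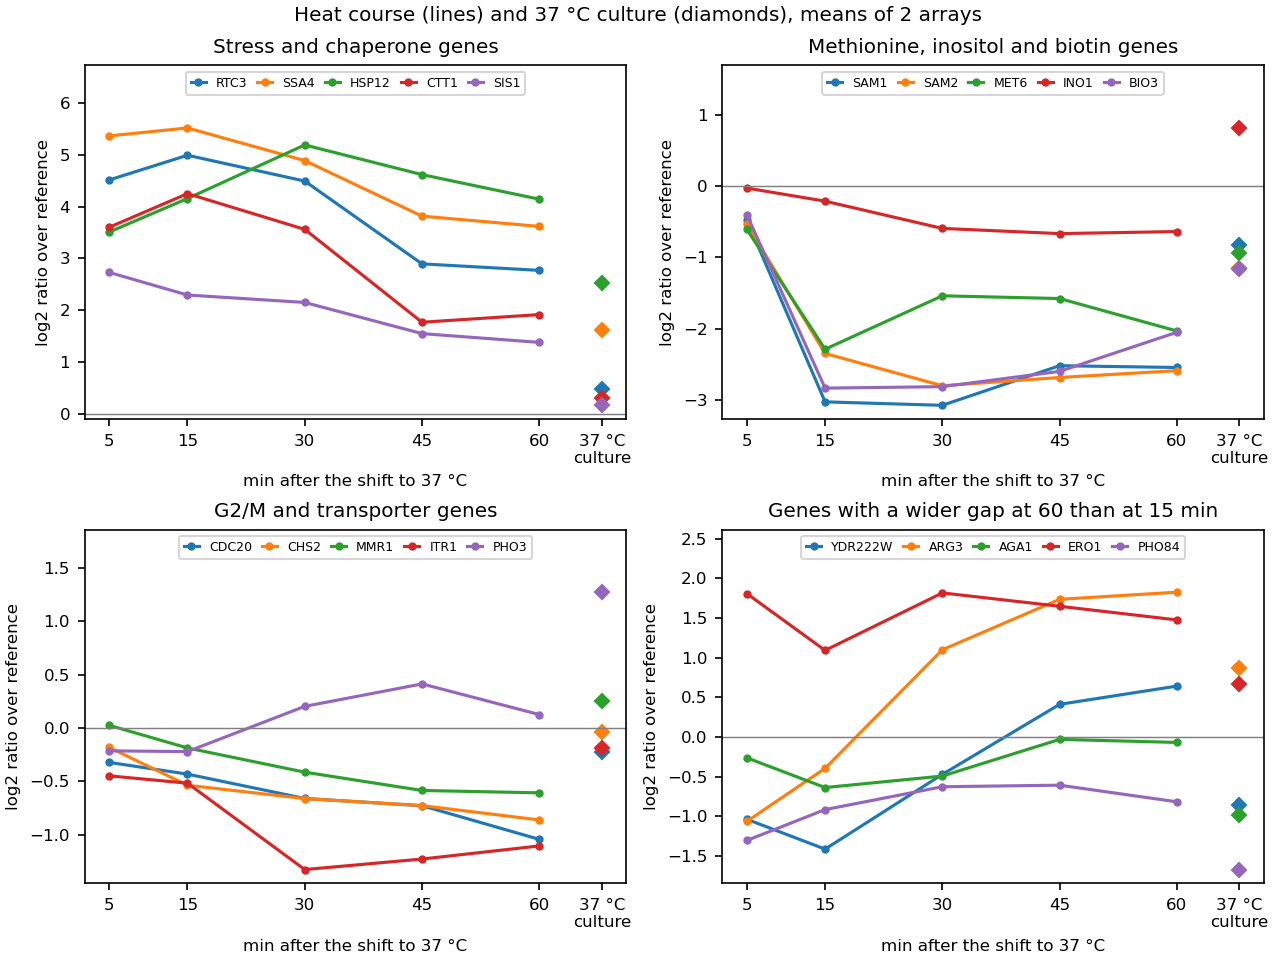
Lines give the mean log2 ratio over the reference (vertical axis, 2 arrays each) at 5, 15, 30, 45 and 60 min after the shift to 37 °C (horizontal axis), and diamonds the mean of the 37 °C culture for the same genes. The stress and chaperone genes descend from their highest values towards their diamonds without reaching them by 60 min. HSP12 does so only after 30 min, and CTT1 rises slightly from 45 min (1.77) to 60 min (1.92). SAM1 and SAM2 lie well below theirs from 15 min on, and ARG3 and YDR222W rise past theirs.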

How the data were processed

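BY4742 RNA was measured in 22 dual-colour arrays of 11 conditions, 2 arrays each, and the 4 arrays of 60 min of heat and of the 37 °C culture are reported. Scanner files deposited by the authors give, for 15552 spots in either channel, a mean intensity from which no background was taken off, and the background beside it. The authors also deposited normalised log2 ratios, made by print-tip loess with a gene-specific dye correction, used here as an alternative. On 3 arrays these ratios carried the opposite sign to the scanner values and were turned. A deposited table of comparisons, with fold changes and p-values, was not used. The submitters' processing notes name limma 2.12.0, and the genome build is not given in the sources used here.

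From these intensities sample over reference, as a log2 ratio, was obtained with limma 3.58.1 in R 4.3.3, normalised by loess within each of 48 print blocks (span 0.4). Spots above 32768 and control spots were given no weight in the curve, and each probe is the mean of its 2 spots. Of 6388 gene probes 5326 carry a symbol and were tested. For 11 genes with several probes the brightest was used. Names were matched to RefSeq's gene table (R64) for 5313 genes, with 54 symbols updated. A linear model with a coefficient for each condition and a term for the dye, which is also the array letter, was fitted to all 22 arrays (10 residual degrees of freedom), followed by eBayes. The Benjamini-Hochberg adjustment ran over all 5326 probes. A spot was well above background when it exceeded it by 2.6 background SDs, and a gene when at least 1 of its 2 spots did. The fit was tested on simulated data.

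Named were the top 15 called genes in each direction by difference, provided that they moved alike on both array letters, 2 called members of each list in each direction (or the member with the largest difference where none was called), the mating-type and strain markers, HSF1, MSN2, MSN4, RPN4 and GCN4. Other genes were named after their values were seen. The comparison, the gene lists and this rule were chosen with earlier results of these data known. The alternatives covered normalisation, background, dim probes, arrays and model terms in the fit, thresholds and each array left out. No sequences were used here.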

Additional observations from a re-analysis of the deposited data

How the results depend on the processing

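The counts of 73 higher and 18 lower genes depended on scaling and thresholds. With a curve through external control spots 146 genes were higher and 7 lower, and 70 and 7 of these were among the main calls. With no within-array curve 54 were higher and 44 lower, with 47 and 18 shared. More than 2-fold was reached by 37 and 7 genes, and 1225 and 1150 passed the adjusted p with no fold threshold. Leaving out each array in turn gave 55 to 85 higher and 19 to 27 lower genes, the highest count of lower genes being that without array b of 60 min of heat. Calls lost without array a of either group were those of DAK1, ERO1, FMP16, GAD1, GPG1, HBT1, MDH2, MMR1, NQM1, OM45, PHM8, PHO84, RNR4, RPS4B, SSA1, STF2, STI1, TDH3, TFS1, TRM112, TSL1, UGP1, UIP4, YBR053C, YIR043C, YMR090W and YNK1. The fit without the block for the array letter gave 73 and 18, the same genes, as did the 4 arrays alone, probes well above background, and duplicate spots kept. These settings leave each difference as it was and could change a call only through the adjusted p or the probes left out. Global loess gave 74 and 22, the deposited log2 ratios 70 and 19, normexp background correction 71 and 18, and an adjusted p below 0.01 gave 72 and 18.

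RPS4B was the only called gene that turned, to -0.15 with no within-array curve, and it lost its call in 8 of 16 alternatives. The others that turned were not called in the main fit and lay near 0. With the control-spot curve these were HSF1 (0.12), MSN2 (0.22), MFA1 (0.069), MFA2 (0.061), LYS2 (0.076) and COS12 (0.13). With no within-array curve they were MFA1 (0.13), MFA2 (0.38), AGA2 (0.12), LEU2 (0.47), LYS2 (0.012), URA3 (0.48) and COS12 (0.35). With global loess they were MSN4 (-0.0096), MFA2 (0.0036) and URA3 (0.0017), and with normexp MFA2 (0.0035). Leaving out each array in turn, differences ran from -0.087 to 0.046 for MSN2, from -0.044 to 0.084 for MSN4, from -0.070 to 0.025 for MFA2, from -0.014 to 0.097 for ASG7, from -0.093 to 0.031 for COS12 and down to -0.027 for STE6. The cause was not tested.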
